A study of Mus musculus with 2 samples.

Results

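Interferon-activated general capillary cells were taken as the general capillary endothelial cells of the mouse lung in which 6 interferon-induced genes, Gbp2, Gbp4, Iigp1, Igtp, Cxcl9 and Cxcl10, held at least 0.5% of the unique molecular identifiers (UMIs, counts of single RNA molecules) of a cell. There were 63 of them, 20 in the Cherry_positive library and 43 in the Cherry_negative library, among 882 general capillary cells and 4581 cells kept in all. An endothelial cell held at least 4 UMIs of Pecam1, Cdh5, Cldn5, Egfl7 and Ramp2, and more of these than of 4 fibrillar collagen and decorin genes. It was placed with the general capillaries when the sum of Aplnr, Plvap, Kit and Pcdh17 was at least 2 and larger than the sums for Car4 capillary, arterial, venous and lymphatic cells. The members were therefore chosen on measured values, and what follows on the 6 genes and on the contrast with the other general capillary cells is a description.

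The Cherry_positive and Cherry_negative cells were CD45-negative lung cells, that is cells without the leukocyte surface protein CD45, sorted on the Cherry label 7 days after labelling 4T1 cells had been injected into a vein. The 4T1 line comes from a mammary tumour of a mouse and forms metastases in lungs. In the labelling version of the line, as it is known, tumour cells secrete a lipid-permeable mCherry protein, which marks cells close to them. There was 1 library per group, and the number, strain, sex and age of the mice are not given in the labels, nor whether these mice had been irradiated. No replicate error can therefore be given and no test was made: each difference compares 2 libraries, and each 95% interval covers counting error only.

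General capillary cells are the endothelial cells of the lung microvasculature that respond to vascular growth signals and replenish the capillary bed, and the larger, thinner Car4 capillary cells lie beside the alveolar epithelium at the surface of gas exchange. Interferon gamma, which T and NK cells make, binds the receptor of Ifngr1 and Ifngr2, and its signal reaches genes with gamma-activated sequences (GAS) in their DNA, among them the gene of the factor Irf1. The signal of type I interferons reaches genes with an interferon-stimulated response element (ISRE). The induced genes include antiviral and antimicrobial GTPases, the machinery that presents peptides on MHC molecules, chemokines that attract T cells, and inhibitors that restrain T cells.

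The promoters of 4 such genes are printed as examples of these elements, chosen because they hold the letters. Gbp2 and Cxcl10 belong to the sum that chose the cells and Gbp2b and Irf8 to the genes named below. Each window is the 250 bases before the RefSeq gene start, on the strand of the gene, in build GRCm38.p6. Capitals mark the ISRE letters, which are GAAA, any 2 bases and GAAA on either strand, in the first 3 and the GAS letters TTCNNNGAA, which read the same on both strands, in Irf8. The windows of Gbp2b, Gbp2 and Cxcl10 held 1 ISRE and no GAS, and that of Irf8 held 2 GAS and no ISRE. They lie at chr3:142594597-142594846 (Gbp2b, + strand), chr3:142620413-142620662 (Gbp2, + strand), chr5:92348890-92349139 (Cxcl10, - strand) and chr8:120736108-120736357 (Irf8, + strand).
Gbp2b: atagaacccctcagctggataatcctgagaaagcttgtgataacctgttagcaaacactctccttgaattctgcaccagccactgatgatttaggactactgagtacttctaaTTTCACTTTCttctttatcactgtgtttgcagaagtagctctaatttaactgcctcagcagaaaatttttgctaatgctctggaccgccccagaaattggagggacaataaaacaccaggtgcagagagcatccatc
Gbp2: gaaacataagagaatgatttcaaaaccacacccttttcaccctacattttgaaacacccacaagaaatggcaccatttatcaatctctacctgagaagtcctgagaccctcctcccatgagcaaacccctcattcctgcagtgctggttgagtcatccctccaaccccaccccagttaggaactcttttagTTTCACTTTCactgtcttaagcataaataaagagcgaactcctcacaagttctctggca
Cxcl10: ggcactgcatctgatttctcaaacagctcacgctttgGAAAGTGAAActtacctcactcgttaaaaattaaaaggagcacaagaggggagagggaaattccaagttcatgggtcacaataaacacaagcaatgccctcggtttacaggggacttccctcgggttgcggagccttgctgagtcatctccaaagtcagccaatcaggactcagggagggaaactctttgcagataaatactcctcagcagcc
Irf8: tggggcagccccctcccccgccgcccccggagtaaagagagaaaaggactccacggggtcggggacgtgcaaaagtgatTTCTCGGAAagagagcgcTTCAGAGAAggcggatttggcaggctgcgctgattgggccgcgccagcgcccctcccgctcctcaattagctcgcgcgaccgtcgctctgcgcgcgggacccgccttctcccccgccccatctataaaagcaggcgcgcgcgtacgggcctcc

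Of all 32851 promoter windows, searched over the 250 bases before the start, 2.98% held the ISRE letters and 7.02% the GAS letters. Among the genes that were past 2-fold higher in the activated cells of both libraries, 156 had a window, and 28 of them (17.9%) held the ISRE letters, against 3.59% of the 4013 compared genes with a window. The GAS letters were in 22 (14.1%) of the higher genes, against 6.93% of the compared genes. Of the 12 genes named below as higher 9 had a window, 2 held the ISRE letters and 2 the GAS letters. The windows of AA467197, Ubd, Cd274, Pfkfb3 and Timp3 held neither, nor did that of Cxcl9 or a second window of Irf8. Of the 6 genes of the sum 4 had a window, and 3 of these held the ISRE letters. A match describes letters in a window and is not evidence of binding. The higher genes come from cells chosen on interferon-induced genes, so nothing is read from the gap between their shares and those of the compared genes.

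The endothelial part of the label was set by the rule, and the capillary part rested largely on 1 gene. Plvap, which encodes the protein of the diaphragms that span endothelial fenestrae and caveolae, was present in all 63 members and gave 84.4% of the general capillary sum in the 20 Cherry_positive members and 84.9% in the 43 Cherry_negative members. Aplnr, the apelin receptor gene, stood at 108 and 154 CPM (UMIs of a gene per 1000000 UMIs outside the 6 genes) in the Cherry_positive and the Cherry_negative members, and the receptor kinase gene Kit at 183 and 205 CPM. Without Plvap in the sum, 2 of 21 Cherry_positive general capillary cells (9.52%) and 4 of 173 Cherry_negative ones (2.31%) stood above the interferon threshold. Genes of the other class sums were present too. At least 1 UMI of the arterial sum was seen in 11 of 20 Cherry_positive and 35 of 43 Cherry_negative members, of the venous sum in 12 and 27, of the Car4 sum in 3 and 18, and of the lymphatic sum in 4 and 4. The venous sum was mostly Prss23, a protease gene, at 345 CPM in Cherry_positive and 597 CPM in Cherry_negative members. The venous genes Vwf and Slc6a2 had 1 and 0 UMIs in Cherry_positive members and 2 and 0 in Cherry_negative members, and the lymphatic regulator Prox1 and the arterial kinase gene Bmx had 0 in all. Car4 had 3 UMIs in Cherry_positive and 55 in Cherry_negative members. The arterial connexin gene Gja4 was at 475 CPM in Cherry_positive members, against 142 CPM in the other general capillary cells of that library, and at 537 CPM in Cherry_negative members, against 215 CPM in the others. Arterial cells stood at 1135 CPM in the Cherry_positive library and at 1036 CPM in the Cherry_negative library.

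Gpihbp1, which encodes the capillary protein that holds lipoprotein lipase and is a usual marker of general capillary cells, was not seen in 9 of 20 Cherry_positive members (45%) although these had a median of 4120 UMIs. It was not seen in 17 of 79 other general capillary cells of that library (21.5%, median 3008 UMIs). In the Cherry_negative library 10 of 43 members (23.3%, median 2410 UMIs) and 96 of 740 others (13.0%, median 2388.5 UMIs) lacked it. Gpihbp1 was seen in 55% of Cherry_positive members, against 80% of 20 arterial and 82.4% of 17 venous cells of that library. Of Cherry_negative cells 76.7% of members, 81.3% of 171 arterial and 53.8% of 117 venous ones held it. In members, arterial and venous cells it stood at 345, 1021 and 699 CPM (Cherry_positive) and at 1518, 1554 and 533 CPM (Cherry_negative). Among epithelial cells, which should lack the gene, 1.54% of Cherry_positive cells held it (median 6493.5 UMIs) and 12.6% of Cherry_negative cells (median 7545.5 UMIs).

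The members came with little RNA of other lineages, with 2 exceptions. Of the Cherry_positive members, 1 cell of 8525 UMIs held 128 UMIs of fibroblast markers, 66 of the 68 Lcn2 UMIs and 29 of the 32 Inmt UMIs of all 20, and 1 cell of 4150 UMIs held 280 of the 281 Ccl21a UMIs, an abundant lymphatic transcript. These were the 2 members in which a marker list of another lineage or Ccl21a reached 1% of UMIs, and no Cherry_negative member did. Among the other general capillary cells 5 of 79 Cherry_positive and 27 of 740 Cherry_negative cells did. The 7 markers of T and NK cells that the files hold had 0 UMIs in all members. The Cherry_positive library had 1826 barcodes and 10094853 UMIs, the Cherry_negative library 2861 barcodes and 11632459 UMIs. The libraries shared 13 barcodes, 1 of them a Cherry_positive member, and Scrublet called 1 Cherry_positive member a doublet.

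Activated cells were 20.2% (95% interval 12.8 to 29.5) of the 99 Cherry_positive general capillary cells and 5.49% (4.0 to 7.33) of the 783 Cherry_negative ones. The intervals, which cover counting error within 1 library each, do not overlap. Without Plvap in the class sum they do, at 1.17 to 30.4% in the Cherry_positive and 0.633 to 5.81% in the Cherry_negative library. Thinned to 2000 UMIs per cell, which left out 5 Cherry_positive and 260 Cherry_negative general capillary cells as too shallow and others because they no longer met the class rule, the shares were 24.7% (21 of 85) and 5.51% (26 of 472). In the other endothelial classes the same threshold was passed by 6 of 89 Cherry_positive and 11 of 350 Cherry_negative Car4 capillary cells. It was also passed by 3 of 20 and 9 of 171 arterial cells and by 2 of 17 and 2 of 117 venous cells. Of lymphatic cells 2 of 19 and 0 of 4 passed it, the last with an upper limit of 60.2%. The share of Cherry_positive general capillary cells lay above the 6.74% (2.51 to 14.1) of Cherry_positive Car4 capillary cells, with overlapping intervals. Mesenchymal cells were at 28.0% (340 of 1214) in the Cherry_positive library and at 1.76% (11 of 624) in the Cherry_negative library. Epithelial cells were at 0 of 130, with an upper limit of 2.80%, and 2 of 438.

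**Figure D1:**
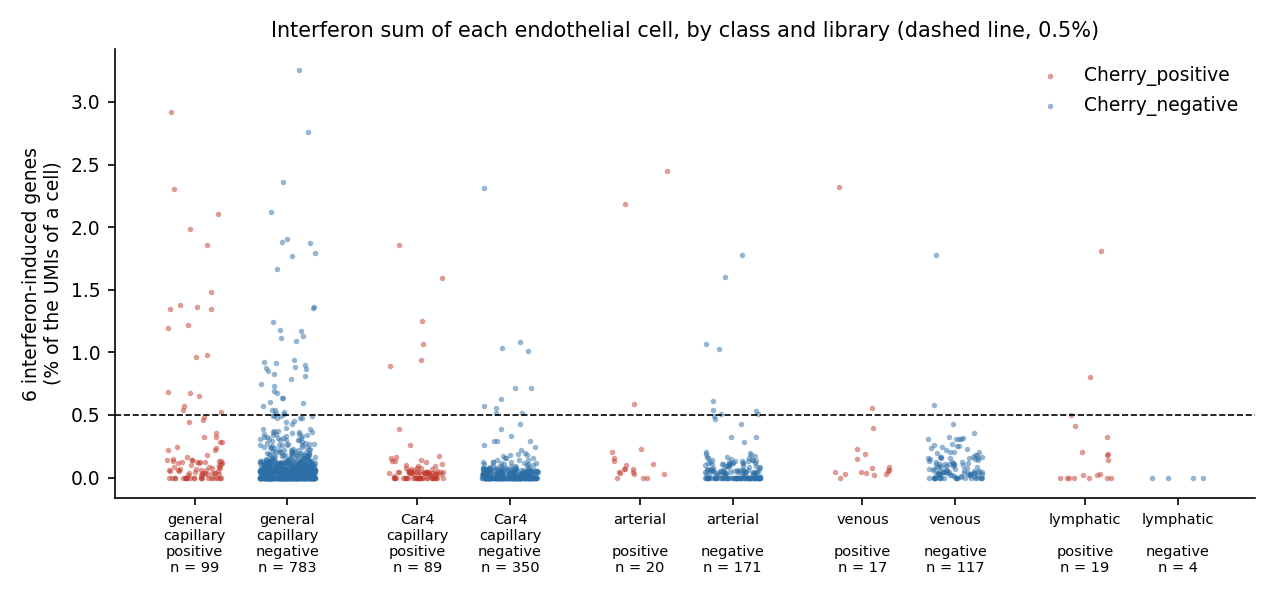
Share of the UMIs of a cell held by the 6 interferon-induced genes, 1 point per endothelial cell, by class and library, with the threshold of 0.5% as a dashed line. The general capillary cells run without a gap through the threshold in both libraries, and the highest stand at 2.92% in the Cherry_positive library and 3.26% in the Cherry_negative library.

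The threshold cut a continuous range. In Cherry_positive members the 6 genes held between 0.527% and 2.92% of UMIs with a median of 1.28%, and in Cherry_negative members between 0.511% and 3.26% with a median of 0.901%. The 3 cells just inside stood at 0.527%, 0.541% and 0.568% in the Cherry_positive library, and the 3 just outside at 0.483%, 0.462% and 0.443%. In the Cherry_negative library the 3 just inside stood at 0.511%, 0.513% and 0.522%, and the 3 just outside at 0.499%, 0.491% and 0.491%.

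The make-up of the sum differed between members of the 2 libraries. Cxcl10 and Cxcl9, chemokines that attract T cells through Cxcr3, gave 27.8% and 14.2% of the sum in Cherry_positive members, against 26.3% and 3.93% in Cherry_negative members. Cxcl9 was seen in 12 of 20 Cherry_positive and 8 of 43 Cherry_negative members, and Cxcl10 in 17 of 20 and 26 of 43. Among epithelial cells 20% of Cherry_positive and 0.913% of Cherry_negative cells held Cxcl9, and 43.1% and 2.74% held Cxcl10. The GTPase genes Gbp4 and Iigp1 gave 19.6% and 18.9% of the sum in Cherry_positive members, against 26.3% and 23.2% in Cherry_negative members. Counting only the 4 GTPase genes, 14 of the 20 Cherry_positive and 40 of the 43 Cherry_negative members still passed 0.5%.

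Beyond the 6 genes, the activated cells carried a broad set of interferon-induced transcripts at levels far above the other general capillary cells of the same library. Of 5215 genes with at least 10 UMIs in each library, 203 (3.89%) were past 2-fold higher in both libraries and 154 (2.95%) past 2-fold lower. Since the cells were chosen on interferon-induced genes, these shares describe the cells and nothing is read from them. Among the 4495 genes with at least 10 UMIs in the other cells of both libraries, a filter that the activated cells do not enter, 128 (2.85%) were past 2-fold higher in both. List counts with this filter are given below where they differ, since a gene that is low in the other cells enters the main count through the activated cells. AA467197 (chromosome 2, 122636986 to 122641191), which encodes a small mitochondrial protein related to Ndufa4, stood at 1662 CPM (1410 to 1946) in Cherry_positive members, against 47.3 CPM (26.5 to 78.0) in the other cells. In the Cherry_negative library it stood at 333 CPM (237 to 455) in members, against 3.02 CPM (1.21 to 6.21) in the others. Ubd (chromosome 17, 37193892 to 37196095), the ubiquitin-like gene of the protein FAT10, stood at 3032 against 101 CPM in the Cherry_positive library, but at 68.2 CPM from 8 UMIs, against 3.02 CPM, in the Cherry_negative library. Both genes were patchy. AA467197 was seen in 15 of 20 Cherry_positive and 10 of 43 Cherry_negative members. It was also seen in 12.3% of Cherry_positive and 0 of 438 Cherry_negative epithelial cells. Taken as 3 counts over the 438 cells, the last allows up to 0.685%. Ubd was seen in 12 and 5 members and in 10.8% and 0.228% of epithelial cells, and 1 member held 38.4% of the Cherry_positive Ubd UMIs.

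Genes that act on T cells were among those named. Ido1 (chromosome 8, 24584136 to 24597009), the enzyme that turns tryptophan into kynurenine and thereby restrains T cells, stood at 647 against 12.6 CPM in the Cherry_positive library, a ratio of 51.3 (19.0 to 194), and at 154 against 1.29 CPM in the Cherry_negative library, a ratio of 119 (34.7 to 630) over 3 UMIs. Wars, the tryptophanyl-tRNA synthetase gene, was seen in 17 of 20 and 36 of 43 members, and in 20.8% and 16.9% of epithelial cells, with ratios of 9.48 (6.38 to 14.4) and 10.5 (8.49 to 13.0). Cd274 (chromosome 19, 29367455 to 29388095) encodes the T cell inhibitor PD-L1 and stood at 388 against 12.6 CPM in the Cherry_positive library and at 299 against 8.19 CPM in the Cherry_negative library. Its ratios were 30.8 (11 to 119) and 36.5 (20.3 to 67.5). Cd40, a costimulatory receptor gene, had ratios of 13.7 and 12.6. Of the list of T cell restraining and costimulatory genes, 4 of 12 compared were past 2-fold higher in both libraries, the fourth being Serpinb9, an inhibitor of granzyme B. With the filter on the other cells this was 1 of 9, as Ido1, Cd274 and Cd40 entered through the activated cells.

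The remaining named higher genes hold GTPases, transcription factors and enzymes. Gbp2b, a guanylate-binding GTPase gene, stood at 2309 CPM (2010 to 2640) against 101 CPM in the Cherry_positive library and at 1331 CPM (1130 to 1557) against 80.6 CPM in the Cherry_negative library. Irf8, a transcription factor gene better known from myeloid cells, had ratios of 23.9 (9.34 to 78.3) and 20.8 (10.6 to 41.3), and was seen in 15 of 20 and 14 of 43 members and in 13.1% and 1.14% of epithelial cells. Macrophage markers summed to 108 CPM in Cherry_positive members against 625 CPM in the others, and to 213 against 2121 CPM in the Cherry_negative library. They reached 1% of UMIs in 1 of 79 and 15 of 740 others, and the median cell held 0 among both members and others. Batf2, a factor that partners Irf1, had ratios of 11.5 and 25, the antiviral gene Rsad2 of 41.0 (10.2 to 358) and 62.7 (24.1 to 192), and the protease inhibitor gene Serpina3g of 8.69 and 7.17. Pfkfb3, an activator of glycolysis, had ratios of 26.2 (7.92 to 136) and 18.8 (9.50 to 37.1), and Timp3, an inhibitor of metalloproteinases, of 7.49 and 8.79.

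**Figure D2:**
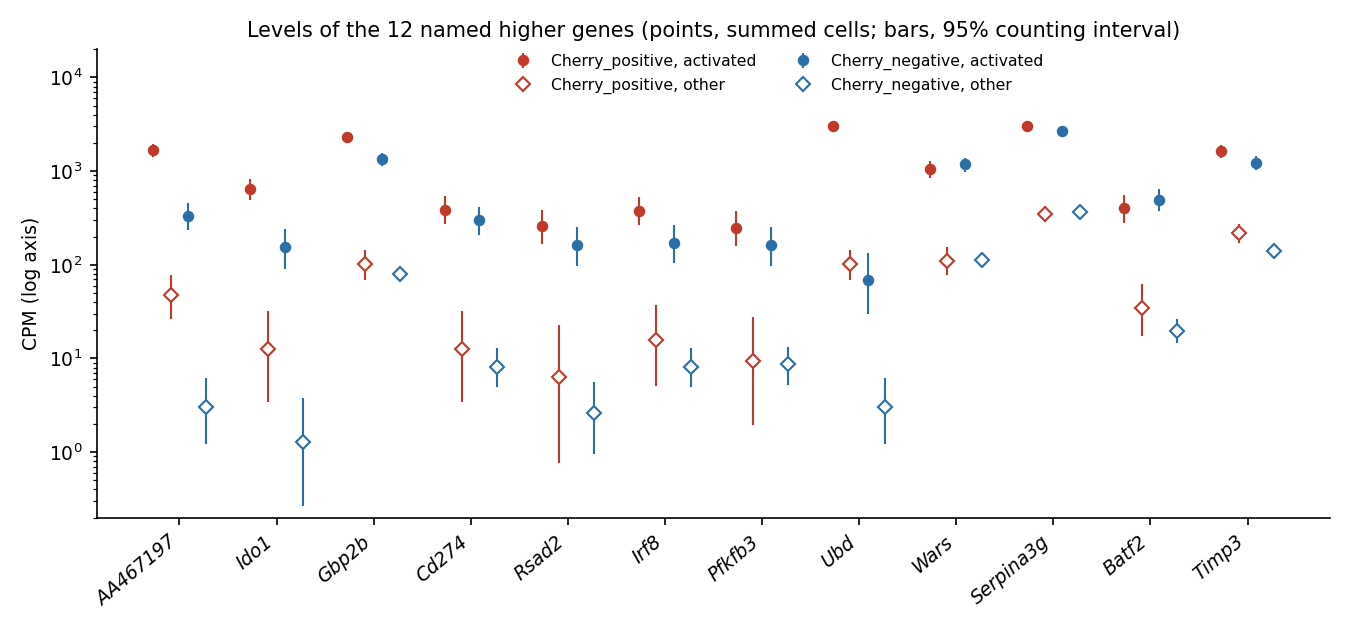
Levels in CPM, on a log axis, of the 12 genes named as higher, in activated cells (filled circles) and other general capillary cells (open diamonds) of the Cherry_positive (red) and Cherry_negative (blue) libraries, with 95% counting intervals. In each library the activated cells stand above the others for all 12 genes, and AA467197, Ido1 and Ubd also stand higher in Cherry_positive than in Cherry_negative members.

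In the interferon pathway itself, Ifngr1, the ligand-binding chain of the interferon gamma receptor, stood at 194 against 183 CPM in the Cherry_positive library and at 222 against 207 CPM in the Cherry_negative library. Irf7, a factor of the type I response, had ratios of 6.84 (3.57 to 13.7) and 4.27 (2.78 to 6.38), and Irf1 of 2.34 (1.67 to 3.26) and 2.02 (1.59 to 2.54). Of the 15 compared genes of this list, 5 were past 2-fold higher in both libraries, among them Irf1, Irf7, Irf8 and Batf2, and 4 of 14 with the filter on the other cells. Feedback inhibitors counted 4 of 8, among them Socs1, which blocks Jak kinases, with ratios of 3.68 (1.61 to 8.51) and 9.04 (5.12 to 15.5), and Usp18, which removes Isg15 and blunts the type I receptor, with 4.4 and 4.95. The lowest log2 ratio of the feedback list was -1.21 in the Cherry_positive library. The list counted 2 of 6 with the filter on the other cells and 2 of 7 without the cells rich in markers of another lineage.

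Antimicrobial and antiviral effectors were higher across most of their lists. All 5 compared guanylate-binding protein genes outside the sum, Gbp2b, Gbp3, Gbp5, Gbp7 and Gbp9, were past 2-fold higher, with median log2 ratios of 2.81 in Cherry_positive and 3.38 in Cherry_negative cells. So were 6 of 7 immunity-related GTPase genes (5 of 6 with the filter on the other cells), with medians of 1.95 and 2.56, among them Irgm1 with ratios of 4.18 and 6.80. Tgtp1 and Tgtp2 are near-identical copies, whose reads the counting could have split. Of 18 antiviral effectors of the type I interferon list, 12 were past 2-fold higher (9 of 14 with the filter on the other cells), with medians of 1.67 and 2.12, such as Isg15, a ubiquitin-like modifier, at 960 against 192 CPM in the Cherry_positive library and 1117 against 211 CPM in the Cherry_negative library. Ifi27l2a was the 1 gene of this list past 2-fold lower in both libraries. It had 2 UMIs in Cherry_positive members and 0 in Cherry_negative members, against 24 and 98 in the others. Over all compared genes the medians were -0.10 and -0.01.

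Antigen presentation was higher on both arms. Of 18 genes of MHC class I and the immunoproteasome 13 were past 2-fold higher, with medians of 1.49 and 1.37. The peptide transporter gene Tap1 had ratios of 6.25 (3.90 to 10.2) and 8.53 (6.52 to 11.1) and the immunoproteasome subunit gene Psmb8 of 3.26 and 2.88. The abundant B2m, the light chain of class I, stood at 13822 against 6082 CPM in the Cherry_positive library and at 10509 against 5501 CPM in the Cherry_negative library. All 6 compared MHC class II genes were past 2-fold higher, with medians of 2.36 and 2.18. Cd74 (chromosome 18, 60803848 to 60812652), the invariant chain of class II, stood at 7952 CPM (7388 to 8547) in Cherry_positive members against 1278 CPM, and at 4470 CPM (4095 to 4870) in Cherry_negative members against 865 CPM. Cd74 is also abundant in type 2 alveolar cells. Their markers summed to 205 CPM in Cherry_positive members against 8444 CPM in the others, and to 1868 against 20380 CPM in the Cherry_negative library. These markers reached 1% of UMIs in 1 of 79 Cherry_positive and 16 of 740 Cherry_negative others, and in 0 members. The median member held 0.0059% and 0.183% of UMIs in them, against 0 and 0.191% in the median other cell. The part of such RNA in the Cd74 levels was not tested. Ciita, the regulator of class II genes, had 2 and 6 UMIs in members against 1 and 14 in the others.

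Among the other interferon gamma induced genes 12 of 17 were past 2-fold higher (9 of 13 with the filter on the other cells), with medians of 2.03 and 1.96. Ly6a, which encodes a surface antigen, stood at 14145 against 3501 CPM in the Cherry_positive library and 13657 against 3064 CPM in the Cherry_negative library. Vamp5, a vesicle fusion gene of the same list, had ratios of 0.441 (0.182 to 0.925) and 0.484 (0.207 to 0.966). Outside the interferon lists 0 of 6 NF-kB targets were past 2-fold higher in both libraries, and 1 of 11 leukocyte adhesion and junction genes, Vcam1, with ratios of 6.54 (3.87 to 11.4) and 4.11 (2.95 to 5.63). Icam1 had 1.99 (1.28 to 3.04) and 2.68 (2.15 to 3.33), and the selectin genes Sele and Selp together had 2 UMIs in Cherry_positive and 0 in Cherry_negative members. Of 7 compared chemokine genes outside the sum 1 was past 2-fold higher in both libraries, Cx3cl1, the membrane-bound fractalkine gene, with ratios of 5.99 and 5.55. It had 8 UMIs in the other Cherry_positive cells, and with the filter on the other cells the count was 0 of 6.

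**Figure D3:**
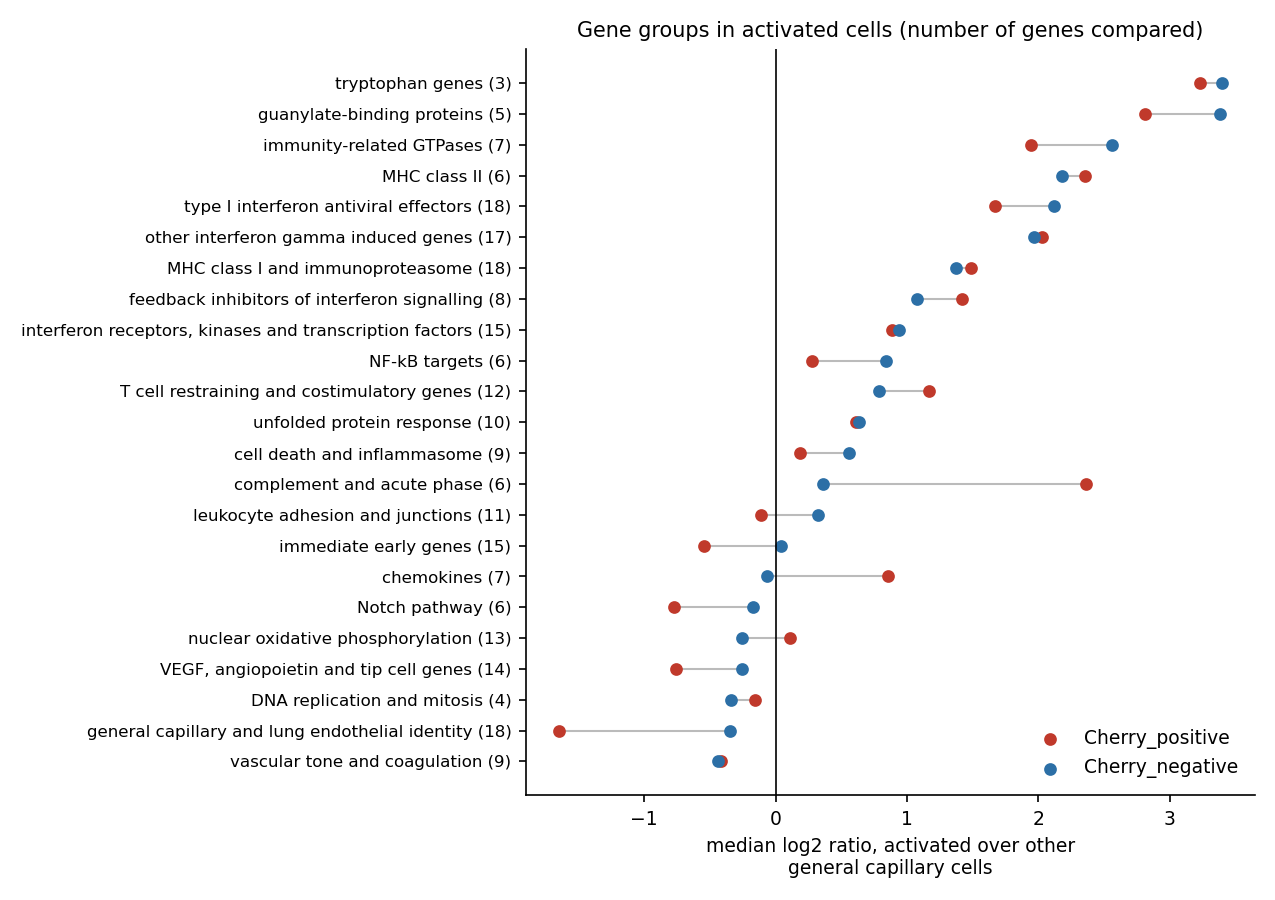
Median log2 ratio of each gene list, activated over other general capillary cells, in the Cherry_positive (red) and Cherry_negative (blue) library, with the number of compared genes in brackets. Interferon, GTPase and MHC lists stand to the right in both libraries, and the capillary identity list stands at -1.65 in the Cherry_positive library and -0.35 in the Cherry_negative library.

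Of the genes named as lower in activated cells, Hpgd, which degrades prostaglandins, stood at 108 against 890 CPM in the Cherry_positive library and at 486 against 1134 CPM in the Cherry_negative library. Scn7a, a sodium channel gene of lung endothelium, had ratios of 0.0834 (0.00994 to 0.311) and 0.297 (0.135 to 0.568). Sdpr, a caveolar coat gene, stood at 75.5 against 631 CPM and at 401 against 794 CPM. Tppp3, which binds tubulin, had 0 UMIs in Cherry_positive members, so with 3 counts over the class as the floor it was at least 4.29-fold lower, and 3 in Cherry_negative members (ratio 0.148, 0.0305 to 0.437). The other genes named on this side were the transcription regulator Tsc22d1, the glutathione transferase Gstm1, Crip1, the aldehyde dehydrogenase Aldh2, the lysosomal protease Ctsd, the endocytic Ehd4, the Rac activator Prex2 and the fatty acid carrier Fabp5. Their ratios lay between 0.177 and 0.451 in the Cherry_positive library and between 0.280 and 0.620 in the Cherry_negative library, except that Fabp5 turned to log2 ratios of 0.40 and 0.22 with cells thinned to 2000 UMIs. Sdpr, Crip1, Aldh2, Ctsd and Ehd4 were not past 2-fold lower in both libraries. Without the cells rich in markers of another lineage, 183 genes were past 2-fold higher and 131 past 2-fold lower, of 4951. The named lower genes kept their sign without these cells. The part of RNA of other lineages in the levels of the named lower genes was not tested.

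Within the class, the summed levels of the GTPase and MHC lists were higher in each bin of higher interferon sum up to 2%, below the threshold too. Cells were put in bins of under 0.1%, 0.1 to 0.5%, 0.5 to 1%, 1 to 2% and at least 2%, which held 49, 30, 8, 9 and 3 Cherry_positive cells and 550, 190, 25, 14 and 4 Cherry_negative cells. The guanylate-binding protein genes outside the sum stood in that order at 248, 681, 2837, 4435 and 7585 CPM in the Cherry_positive library and at 231, 788, 2680, 4331 and 6800 CPM in the Cherry_negative library. The values of both libraries lay close to each other at each step. MHC class I and immunoproteasome genes stood at 15994, 23540, 34839, 49038 and 50616 CPM in Cherry_positive cells and at 17276, 23645, 32600, 44567 and 41790 CPM in Cherry_negative cells. MHC class II genes stood at 687, 3927, 7839, 16527 and 12545 CPM in the Cherry_positive library and at 1447, 1966, 6514, 9896 and 3620 CPM in the Cherry_negative library, where the last bin of each rests on 3 and 4 cells. The capillary identity list did not follow this course in the Cherry_positive library: it stood at 12955 and 12802 CPM in the 2 bins below the threshold and at 3957, 4899 and 3866 CPM in the 3 above it. In the Cherry_negative library it stood at 14454, 16308, 12668, 9460 and 9323 CPM.

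**Figure D4:**
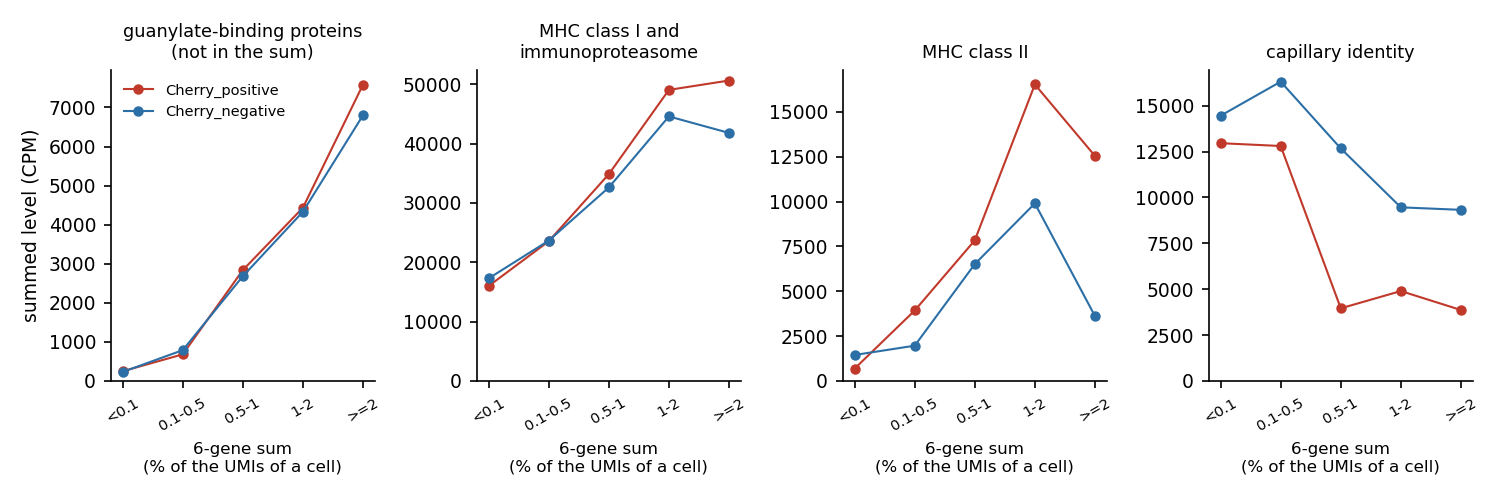
Summed level in CPM of 4 gene lists in general capillary cells, by the share of UMIs held by the 6 interferon-induced genes, in the Cherry_positive (red) and Cherry_negative (blue) library. The GTPase and MHC class I lists stand at similar levels in both libraries at each step, whereas capillary identity stands between 3866 and 4899 CPM in the 3 upper Cherry_positive bins and between 9323 and 12668 CPM in the Cherry_negative ones.

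Members of the same library differed among themselves. The share of UMIs in MHC class II genes was between 0 and 3.37% in Cherry_positive members, with a median of 1.36% and 1 cell at 0, and between 0 and 3.08% in Cherry_negative members, with a median of 0.546% and 5 cells at 0. The guanylate-binding protein genes outside the sum were seen in every Cherry_positive member and in 42 of 43 Cherry_negative ones, and the immunity-related GTPase genes outside it in every member. The capillary identity list lay below the median of the other cells of the library in 19 of 20 Cherry_positive members and in 33 of 43 Cherry_negative members. Its share was between 0.0481% and 1.62% with a median of 0.373% in the Cherry_positive members, and between 0.254% and 2.27% with a median of 1.22% in the Cherry_negative members. Of the 16 replication and mitosis genes 4 could be compared and 0 were past 2-fold, and the sum of the list was 140 CPM in Cherry_positive members, against 268 CPM in the others, and 85.3 CPM in Cherry_negative members, against 305 CPM.

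Between the activated cells of the 2 libraries, most interferon-induced genes lay within 2-fold and most capillary genes did not. Of 3258 genes with at least 10 UMIs, 201 (6.17%) were past 2-fold higher in Cherry_positive than in Cherry_negative members and 418 (12.8%) past 2-fold lower. The same contrast in the other general capillary cells gave 552 of 10078 (5.48%) and 880 (8.73%). In MHC class I and the immunoproteasome 0 of 18 genes were past 2-fold either way, with a median log2 ratio of 0.15 between the members and 0.04 between the other cells. The guanylate-binding protein and immunity-related GTPase lists had 0 of 5 and 0 of 7, with medians of -0.03 and -0.21. Between the other cells these lists had 1 of 6 and 2 of 7 past 2-fold higher, with medians of 0.28 and 0.51. MHC class II had 1 of 6 higher, H2-DMa, with a median of 0.58 in the members and 0.43 in the others.

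A few interferon gamma induced genes stood far apart. Ubd had 281 UMIs, or 3032 CPM (2688 to 3408), in Cherry_positive members, against 8 UMIs, or 68.2 CPM (29.5 to 134), in Cherry_negative members, a ratio of 44.4 (22.2 to 104). In the other cells the ratio was 33.5, from 32 UMIs in 3 cells against 7 UMIs in 1 cell. AA467197 stood at 1662 against 333 CPM, a ratio of 4.99 (3.50 to 7.29), and Ido1 at 647 against 154 CPM, a ratio of 4.22 (2.46 to 7.59). Both were also higher in the other Cherry_positive cells, with ratios of 15.7 and 9.76 on few UMIs. Of the Cherry_positive mesenchymal cells 340 of 1214 stood above the threshold. All of them together stood at 64 CPM for Ubd, 9.38 CPM for AA467197 and 0.586 CPM for Ido1. The mesenchymal cells above the threshold were not measured apart. Serpinb9 had a ratio of 2.71 (1.58 to 4.79) and Lap3, an aminopeptidase gene, of 3.25 (1.30 to 9.21). In all, 4 of 17 genes of the list of other interferon gamma induced genes were past 2-fold higher and the median was 0.20.

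Among the further genes named as higher in Cherry_positive members, Gadd45g, a stress-response gene, stood at 626 against 145 CPM, Hspb1, a small heat shock gene, at 593 against 171 CPM, and Actb, the beta-actin gene, at 5848 against 2892 CPM. Prkcdbp, a caveolar gene, had a ratio of 4.43 (2.29 to 9.24), Trp53i11 of 3.3 (2.01 to 5.59), and Ch25h, which hydroxylates cholesterol into an antiviral oxysterol, of 5.69 (2.30 to 16.9) from 27 UMIs in 5 cells against 6 UMIs in 2 cells. Cxcl12, a chemokine for Cxcr4, had a ratio of 3.79 (1.65 to 9.77). In the other cells these 7 ratios lay between 0.341 and 1.38. A single Cherry_positive member held 37.1% of the Actb UMIs, and a single member 41.7% of the Cxcl12 UMIs.

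Complement and acute phase genes were higher in Cherry_positive members for 4 of 4 compared genes, but 1 cell carried much of it. The list had 319 UMIs in Cherry_positive and 25 in Cherry_negative members. Genes could thus pass the filter of 10 UMIs through the Cherry_positive side alone, and nothing is read from the count. Saa3, an acute phase gene, had 174 UMIs against 1, with 93.7% of them in 1 cell, and Lcn2 68 against 3, with 97.1% in 1 cell. Serping1, the inhibitor of complement C1, was seen in 14 of 20 Cherry_positive and 7 of 43 Cherry_negative members, and in 33.1% and 7.99% of epithelial cells, with 464 against 76.8 CPM and a ratio of 6.04 (2.91 to 14.1), and the protease gene C1ra had a ratio of 5.06 (1.63 to 20.8). Fibroblast markers moved with them, with 4 of 4 compared higher and sums of 1672 against 282 CPM. These came from 155 against 33 UMIs, and the same limit holds for their count. Without the 2 members rich in fibroblast markers or Ccl21a, the complement list had a median of 2.18 over 3 genes in place of 3.58 over 4, and 0 of 2 compared fibroblast markers were past 2-fold. Mesenchymal cells had 2119 CPM of Serping1 in the Cherry_positive library and 2137 CPM in the Cherry_negative library, and the part of such RNA in the member levels was not tested.

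Capillary genes were lower in the Cherry_positive members. Of 18 compared genes of general capillary and lung endothelial identity 15 were past 2-fold lower, with a median log2 ratio of -1.50, where 12.8% of all genes were lower. Between the other general capillary cells of the same libraries 0 of 18 were, with a median of -0.20. Gpihbp1 (chromosome 15, 75596628 to 75599481) stood at 345 CPM (236 to 487) in Cherry_positive members, against 1518 CPM (1304 to 1759) in Cherry_negative members, a ratio of 0.227 (0.151 to 0.333). The others of each library stood at 1590 CPM (1454 to 1735) and 1841 CPM (1786 to 1897). Tmem100 (chromosome 11, 90030348 to 90036508), a target of BMP signalling through Acvrl1, stood at 356 against 1271 CPM in the members and at 1555 against 1654 CPM in the others. It was seen in 6 of 20 Cherry_positive and 30 of 43 Cherry_negative members, and in 4.62% and 9.59% of epithelial cells.

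The lower group held receptors, signalling genes and transcription factors of lung endothelium. Calcrl, the receptor of adrenomedullin, had a ratio of 0.265 (0.147 to 0.452), Ptprb, an endothelial phosphatase, of 0.228 (0.0984 to 0.468), the fatty acid receptor Cd36 of 0.348 (0.219 to 0.538) and the factor Foxf1 of 0.358 (0.226 to 0.549). The angiopoietin receptor Tek had 0.337 (0.134 to 0.753), the BMP receptors Acvrl1 and Bmpr2 had 0.446 and 0.486, and Clec14a, a surface lectin-like gene, had 0.260 (0.155 to 0.420). Cd93, Epas1 and Lyve1 were not past 2-fold, with ratios of 0.656, 0.570 and 0.890. Genes that define endothelium as such differed less: Cdh5 had a ratio of 0.816 (0.594 to 1.11), Pecam1 of 0.565 (0.413 to 0.766), Cldn5 of 0.577 (0.494 to 0.674) and Plvap of 0.716 (0.607 to 0.843), though Cdh5, Pecam1, Cldn5 and Plvap are part of the rule.

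Of 7 compared genes of vascular tone and coagulation 3 were past 2-fold lower in Cherry_positive members, Thbd, Eng and Ace, and 1 was past 2-fold higher, Tfpi, an inhibitor of coagulation, from 12 UMIs against 6. Thbd, the thrombin receptor that starts the protein C pathway, had 3 UMIs in Cherry_positive members against 44 in Cherry_negative members, a ratio of 0.0862 (0.0171 to 0.269), and its ratio was 0.906 in the other cells. Smad6, an inhibitor of BMP signalling, had 0.120 (0.0426 to 0.277), the BMP co-receptor Eng 0.342 (0.244 to 0.472) and the angiotensin-converting enzyme gene Ace 0.411 (0.251 to 0.652). Of the Notch list 3 of 5 were past 2-fold lower, Hes1, Nrarp and Mfng. Of the VEGF, angiopoietin and tip cell list 4 of 10 were, Nrp1, Tie1, Dll4 and Cd24a. Of all compared genes 12.8% were past 2-fold lower and 6.17% higher. The Notch list had 37 UMIs in Cherry_positive and 90 in Cherry_negative members. Genes could thus pass the filter of 10 UMIs through the Cherry_negative side alone. Nothing is read from these counts, those of vascular tone included. Without the members rich in markers of another lineage 1 of 5 Notch genes was past 2-fold lower. The remaining named lower genes were Car4, which is part of the class sums, Tmem252, the microtubule regulator Stmn2, Sdpr and the growth inhibitor Btg2, with ratios between 0.069 and 0.288. The Cherry_positive members had more UMIs per cell than the Cherry_negative members. With cells thinned to 2000 UMIs 119 genes were past 2-fold higher and 199 lower.

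**Figure D5:**
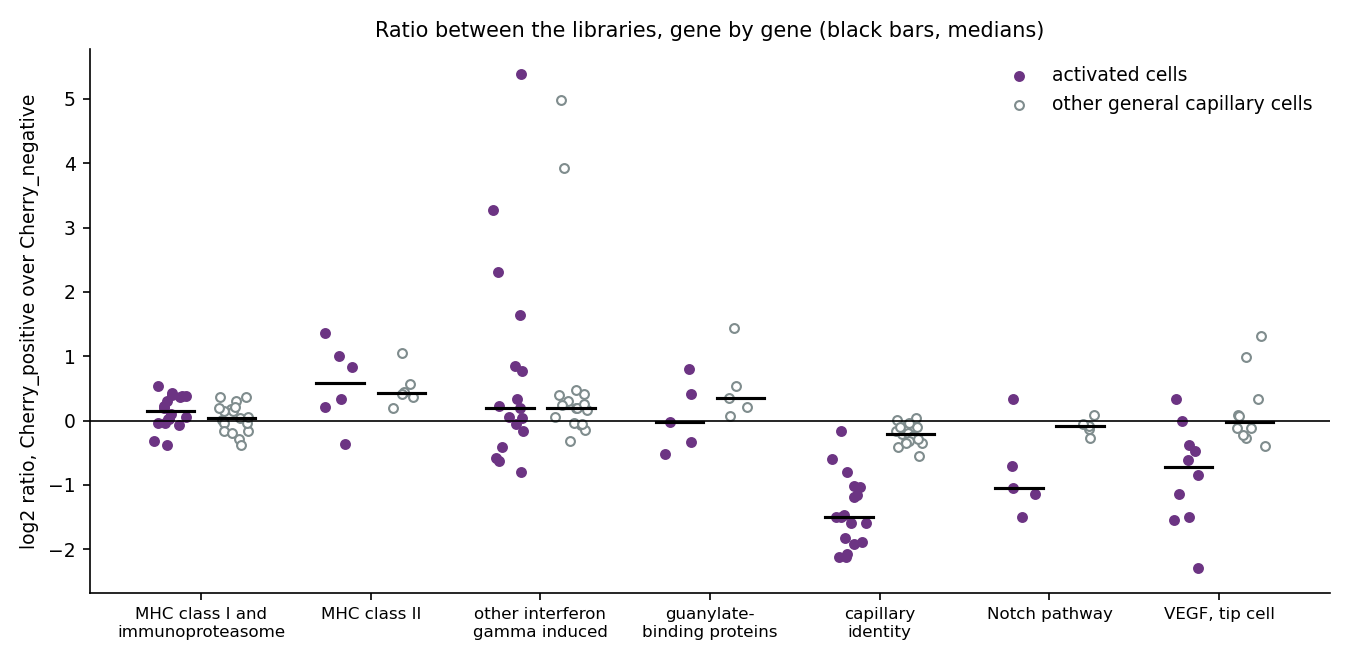
Log2 ratio of Cherry_positive over Cherry_negative for each gene of 7 lists that had at least 10 UMIs in the members, in activated cells (filled) and other general capillary cells (open), with medians over these genes as black bars. In activated cells the medians of MHC class I and the guanylate-binding proteins are 0.15 and -0.03, that of MHC class II is 0.58, and that of the capillary identity genes is -1.50, against -0.20 in the other cells.

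Car4 capillary cells above the same threshold, 6 in the Cherry_positive library and 11 in the Cherry_negative library, were set against the general capillary members. Of 1779 genes with at least 10 UMIs in each library, 69 (3.88%) were past 2-fold higher in the general capillary members of both libraries and 66 (3.71%) past 2-fold lower. With trimmed-mean scaling, which raised the log2 ratios by 0.43 and 0.33, these were 173 and 29, so the split depends on the scaling. Of 5 compared MHC class II genes 4 were higher. All class II genes together had 3 UMIs in the Cherry_positive Car4 cells. They therefore passed the filter of that library through the general capillary members, and nothing is read from the count. Class II genes summed to 123 and 1268 CPM in these Car4 cells, and to 2158 and 1567 CPM in the other general capillary cells. In the general capillary members they summed to 12171 and 7481 CPM. Between the other general capillary and these Car4 cells the counting intervals overlapped in the Cherry_negative library (1516 to 1618 against 914 to 1714 CPM). Car4 cells below the threshold were not summed, so whether the gap is particular to activated cells was not tested. Cd74 had 737 UMIs in Cherry_positive members against 0 in Car4 cells, which is at least 64.9-fold higher with 3 counts over the class as the floor, and 524 UMIs in Cherry_negative members against 13, a ratio of 11.4 (6.60 to 21.5). H2-Ab1 stood at 1867 against 81.7 CPM and at 1484 against 453 CPM, and H2-Aa at 852 CPM against 0 UMIs and at 734 against 121 CPM. In MHC class I and the immunoproteasome 0 of 18 genes were past 2-fold either way, nor were any of the 5 guanylate-binding protein genes, with either scaling. The trimmed-mean scaling put all 5 compared class II genes past 2-fold, a count with the same limit.

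Further genes set these capillaries apart. Tmsb10, an actin-binding peptide gene, had ratios of 2.82 (2.17 to 3.72) and 3.91 (2.86 to 5.48), and Marcksl1, an actin regulator, had 27 and 33 UMIs in members against 0 in Car4 cells, at least 2.38-fold and 3.11-fold higher. Lower in members was the interferon-inducible transcript AW112010, at 97.1 against 3351 CPM in the Cherry_positive library and at 171 against 2536 CPM in the Cherry_negative library. The adhesion gene Icam1 had ratios of 0.232 (0.144 to 0.372) and 0.445 (0.319 to 0.623). Igfbp7, Pmp22 and Emp2, which are markers of Car4 capillary cells, were lower as well. Cd274 had ratios of 0.50 (0.279 to 0.923) and 0.430 (0.247 to 0.762). With trimmed-mean scaling neither Icam1 nor Cd274 was past 2-fold lower in both libraries.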

How the data were processed

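The deposited tables hold UMI counts for 27998 gene IDs in each barcode, per the file headers and the labels' protocols. According to the submitters' processing notes, Cell Ranger 2.1.1, Seurat 4.0.2, R 4.0.3 and the build mm10 were used, and further settings are not stated. Barcodes with fewer than 500 genes, or above 10% of mitochondrial UMIs, were dropped, 56 Cherry_positive and 50 Cherry_negative. Scrublet in scanpy 1.11.5 called 4 (0.226%) and 7 (0.249%) doublets, which is too few for a working caller, and none were removed.

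Each level is the UMI total of a gene in a class, relative to the class total outside the 6 genes. With 1 library per group no test was made. Levels have exact Poisson intervals, shares exact (Clopper-Pearson) binomial intervals, and a ratio the limits of the binomial share of its pair of counts, at 95%. Log2 ratios had 0.5 added to each count. A gene with 10 or more UMIs counted when past 2-fold, and within libraries when past it in both. The sums and ratios were tested on simulated data. The members, lists and added comparisons were chosen with earlier results of these data known.

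Genes were named by how far their interval lay from 1, 12, 10 and 5 each way in the 3 contrasts, from genes with at least 30 UMIs and 20 CPM. In the contrast of libraries, genes with over 50% of UMIs in 1 cell were left out, as were in all contrasts the 6 genes, genes at 10 times the level in mesenchymal, epithelial or immune cells, and those of mitochondria, ribosomal proteins, haemoglobins and immunoglobulins. Members of the 23 gene lists and 10 marker lists could be named anywhere, 6 listed symbols had no single ID, and some genes named by the rule are not reported here. Gene positions are from GENCODE M21 (GRCm38). Python 3.11.15, numpy 2.4.6, scipy 1.17.1, pandas 2.3.3 and matplotlib 3.10.9 were used. Alternatives changed the threshold, filters, depth, scaling and cells kept.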

Additional observations from a re-analysis of the deposited data

Results flagged for a closer look

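Among the genes of the lists and the named genes, 5 went in opposite directions in the 2 libraries when activated cells were set against other general capillary cells, with both counting intervals off 1. The difference between the libraries was not tested, since each has 1 sample. Lcn2 had a log2 ratio of 6.55 in Cherry_positive cells and -2.11 in Cherry_negative cells, and 66 of its 68 UMIs in Cherry_positive members came from 1 cell. Inmt, a fibroblast gene, had 1.96 and -1.19, with 29 of 32 UMIs in the same cell. Cxcl12 had 1.12 and -1.48, from 24 UMIs in 6 Cherry_positive members and 8 UMIs in 6 Cherry_negative members. Actb had 0.53 and -0.16, with 37.1% of the Cherry_positive UMIs in 1 cell. Esam, an endothelial adhesion gene, had -0.52 and 0.33, with at most 16.0% of UMIs in 1 cell.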

How the results depend on the processing

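No paired analysis was possible because each group is 1 library and the labels give no replicate numbers. Shares were 20.2% and 5.49% of Cherry_positive and Cherry_negative general capillary cells, and moved to 11.9% in the Cherry_negative library with a threshold of 0.25%, to 12.1% and 2.30% with 1%, and to 9.52% and 2.31% without Plvap in the class sum. The 203 genes higher and 154 lower in activated than other cells became 133 and 68 with thinning to 2000 UMIs and 723 and 389 with no filter on low counts, and the lower ones 66 and 283 with thresholds of 0.25% and 1% and 30 with 2 added to counts. Between Cherry_positive and Cherry_negative members the 201 higher and 418 lower genes became 119 and 199 with thinning and 1925 and 2740 with no filter, and the lower ones 681 and 190 with the 2 thresholds and 268 with 2 added. Against Car4 cells the 69 higher and 66 lower genes became 33 and 33 with thinning, 173 and 29 with trimmed-mean scaling and 212 and 595 with no filter, and the higher ones 107 at 0.25% and 23 with 2 added. The cause was not tested, apart from fewer UMIs under thinning and more genes without the filter.

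Between Cherry_positive and Cherry_negative members the MHC class II median moved from 0.58 to 1.04 at 0.25%, and that of other interferon gamma induced genes from 0.20 to 0.48 without Cxcl9 and Cxcl10 in the sum and to -0.082 without cells above 2%. The capillary identity median of activated against other Cherry_negative cells moved from -0.35 to -0.87 at 1%. Of 184 medians of these lists and of MHC class I under alternatives, 180 stayed within the counting interval of the middle genes. Medians turned sign for vascular tone, to 0.062 in Cherry_negative cells at 0.25% and to 0.00069 between members with no filter, and for leukocyte adhesion in Cherry_negative cells, to -0.036 with thinning. Fabp5 turned to 0.40 and 0.22 with thinning. With 20 and 43 cells, genes under about 10 UMIs could not be compared.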

Other observations

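Of the vascular growth factor and tip cell genes, Angpt2, the Tie2 antagonist angiopoietin-2, had activated to other ratios of 3.42 (1.60 to 7.31) in Cherry_positive and 6.60 (3.50 to 11.8) in Cherry_negative cells, while Sox17, a transcription factor of arterial endothelium, had 0.386 and 0.409. The tip cell gene Esm1 had 1 UMI in the members of each library, against 22 and 213 in the other cells, with ratios of 0.155 (0.00377 to 0.962) and 0.0930 (0.00234 to 0.524). On this list 1 of 14 compared genes was past 2-fold higher in both libraries and 2 lower. Of the genes of vascular tone and coagulation, 1 of 9 was past 2-fold higher in both libraries and 0 lower, with medians of -0.41 and -0.44.

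Of 9 cell death and inflammasome genes 2 were past 2-fold higher, the inflammatory caspase gene Casp4, with ratios of 2.71 (1.40 to 5.16) and 3.93 (2.59 to 5.81), and Mlkl, the effector of necroptosis, with 4.79 (1.31 to 19.1) and 2.24 (0.863 to 4.89). The unfolded protein response had 0 of 10 genes past 2-fold in both libraries, with medians of 0.61 and 0.63, and nuclear oxidative phosphorylation 0 of 13, with 0.11 and -0.26. Of 15 immediate early genes 1 was lower, Nr4a1, from 1 and 2 UMIs in members, and of 6 Notch genes 0 were. The tryptophan list had 2 of 3 higher, Wars and Ido1, where Ido1 had 4 and 3 UMIs in the other cells, and the complement list 1 of 6, C1ra. With at least 10 UMIs asked of the other cells of both libraries, the counts were 1 of 2 for the tryptophan list, 1 of 4 for complement and 1 of 7 for cell death.

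Among marker lists, those of pericytes and smooth muscle summed to 108 CPM in Cherry_positive members against 293 CPM in the other cells, and to 8.53 against 51.7 CPM in the Cherry_negative library. Type 1 alveolar markers summed to 140 against 599 CPM and to 495 against 823 CPM. Keratins of carcinoma summed to 21.6 against 53.6 CPM and to 0 UMIs against 41.4 CPM. Red cell and platelet markers summed to 130 against 9217 CPM and to 51.2 against 29.3 CPM. Of the 79 other Cherry_positive cells 1 held 51.5% of its UMIs in red cell and platelet markers. The median one held 0, against 0.0119% in the median Cherry_positive member. Markers of Car4 capillary cells outside the class sums summed to 3345 against 4028 CPM and to 3830 against 4010 CPM.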
